A study of Homo sapiens with 3 samples.

Results

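Levels of 7 genes that mark epithelial and intestinal cells were followed in HCT116, an established line of human colorectal cancer cells, after shRNA knockdown of the circular RNA circRAPGEF5. The genes EPCAM, CDH1, KRT8, KRT18, VIL1, CDX2 and CA2 were picked by symbol, and all 7 were found among the 15625 genes of the table. Messenger RNA was sequenced in 2 libraries labelled sh_circRAPGEF5 (knockdown libraries 1 and 2) and in 1 library labelled sh_control. Every library came from HCT116 cells of genotype MT, as the labels write it, that received a shRNA system and were collected 36 or 48 h later. Which library had which time is not in the labels, nor whether libraries 1 and 2 were separate hairpins or cultures. The series title places the study in RAS/RAF/MEK/ERK signaling.

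Epithelial cells hold together through surface adhesion proteins and carry a cytoskeleton of keratin filaments. In simple epithelia such as the gut lining, keratin 8 (type II) and keratin 18 (type I) pair to form those filaments, and E-cadherin links neighbouring cells through the catenins. Intestinal identity is set by the homeobox factor CDX2, and absorptive cells of the gut carry a brush border of microvilli bundled by villin.

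Since separate cultures are not recorded in the labels, p-values cover the spread among these libraries alone, and that spread may be technical. The circular RNA itself was not analysed here, so the knockdown has no check of its own. In bulk RNA, fewer cells of a type and less RNA per cell cannot be told apart. Levels are FPKM (fragments scaled to gene length and library size), so genes can be compared per length. Differences are of log2(FPKM + 1), knockdown minus control, tested with limma over 11216 genes with a mean FPKM of at least 1 and a Benjamini-Hochberg adjusted p threshold of 0.05. The smallest whole reads behind the values summed to 14832142 and 15758794 in knockdown libraries 1 and 2 and to 14632390 in the control. Exact permutation over the 3 possible splits gives at best p = 0.33. The control has no replicate and no SD.

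KRT8, KRT18 and EPCAM were the most abundant of the 7 genes in every library, CDH1 and CA2 had intermediate levels, CDX2 was low and VIL1 was nearly absent. The order of levels was the same in all 3 libraries: KRT8, KRT18, EPCAM, CDH1, CA2, CDX2 and VIL1. In the control, KRT8 ranked 45, KRT18 93 and EPCAM 243 among 15625 genes by FPKM, while CDX2 ranked 8769. The ranges over the 3 libraries did not overlap between neighbours in this order, except for CDH1 (20.3 to 33.1 FPKM) and CA2 (8.05 to 23.02 FPKM). Of 6 genes tested, limma called 0, and an unadjusted p under 0.05 was reached by 0. The background over all genes tested was 2 genes called higher (0.0178%) and 0 called lower, with 7.07% at an unadjusted p under 0.05.

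**Figure D1:**
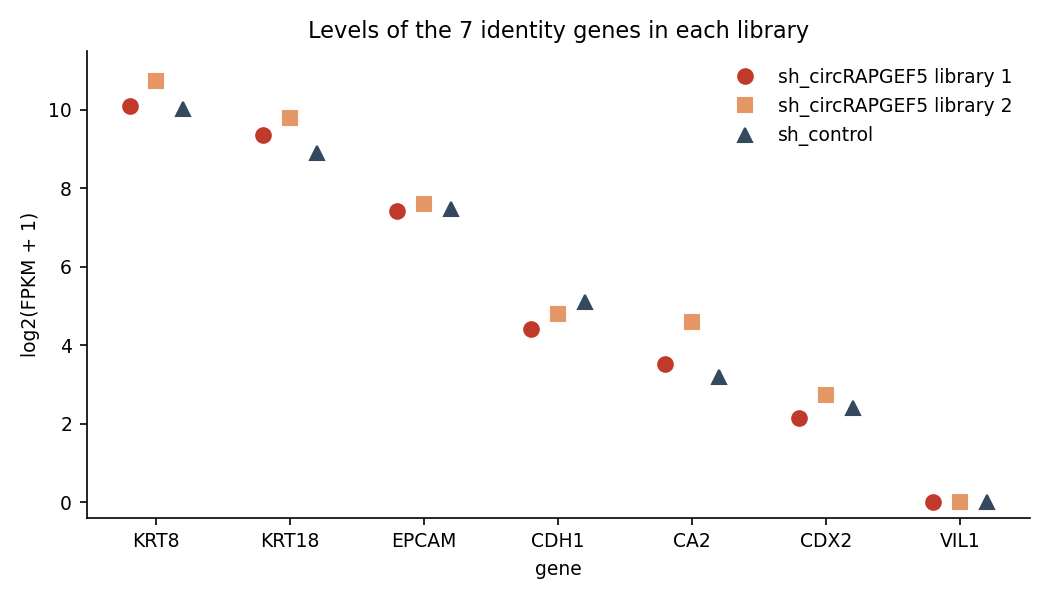
Level of each gene, as log2(FPKM + 1), in knockdown library 1 (circles), knockdown library 2 (squares) and the control (triangles), with 1 point per library. The keratins and EPCAM sit at the top in all 3 libraries, CDX2 lies between 3.40 and 5.61 FPKM, and VIL1 lies at or next to 0.

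VIL1 encodes villin, the actin-bundling and actin-severing protein of brush border microvilli. It was at 0 FPKM in both knockdown libraries, against 0.00944 FPKM in the control. With a value in 1 library only, its smallest whole number of reads is 1 by definition, so the true count is not known. If it is 1 read, a count of 0 allows up to 3 reads, or 0.0279 and 0.0263 FPKM in knockdown libraries 1 and 2. Villin mRNA was thus nearly absent at this depth, and no fold or test is given. The gene (GRCh38 chromosome 2, 218419092 to 218453295, plus strand, GENCODE release 29) has 20 exons in its main transcript. Its neighbours were expressed: USP37, a ubiquitin protease, was at 4.65 and 6.07 FPKM in the knockdown libraries, against 5.73 in the control. CTDSP1, a phosphatase, was at 21.95 and 13.5 FPKM, against 27.2 in the control.

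CDX2 was present at a low level. It was at 3.40 and 5.61 FPKM in knockdown libraries 1 and 2, against 4.24 FPKM in the control. The control lay between the knockdown libraries, so the groups overlapped. The log2 difference was 0.04 ± 0.46 (SE) with a 95% interval of -0.96 to 1.04 and a limma adjusted p of 0.995. These levels rest on at least 127 and 222 reads in the knockdown libraries and 156 in the control. The ratio to the control was 0.803 (95% counting interval 0.630 to 1.02) in library 1 and 1.32 (1.07 to 1.64) in library 2. These intervals cover counting error alone. PDX1, its neighbour on chromosome 13 and the homeobox factor of the pancreas and duodenum, was at 0.814 and 1.10 FPKM, against 1.23 in the control.

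The 300 bases around the CDX2 start that RefSeq annotates (GRCh38.p14, chr13:27969266-27969565, minus strand) are shown because CDX2 is the transcription factor among the 7 genes. Capitals mark the only match to the 6 motifs searched on both strands, a caudal-type homeobox site (TTTATTG, here as its reverse complement) that begins 181 bases before the start.
CDX2: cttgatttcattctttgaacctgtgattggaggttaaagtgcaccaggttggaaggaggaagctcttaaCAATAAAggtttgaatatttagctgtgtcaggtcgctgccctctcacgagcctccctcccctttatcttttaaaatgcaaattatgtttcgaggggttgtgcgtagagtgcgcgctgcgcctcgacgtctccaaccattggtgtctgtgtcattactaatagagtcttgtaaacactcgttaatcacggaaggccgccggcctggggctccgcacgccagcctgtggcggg

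Of 35116 RefSeq promoters of this length, 4.004% hold TTTATTG on either strand. The other motifs searched were an AP-1 site (TGANTCA, in 7.71% of promoters), an E-box (CAGGTG, 20.6%), a GC box (GGGCGG, 44.95%), an ETS site (CCGGAAG, 10.3%) and a TATA box (TATAAA, 11.53%). A match describes the letters and is not evidence of binding. None of the 2 transcripts of CDX2 in GENCODE release 29 starts within 50 bases of this RefSeq start. Of the 7 genes, 2 had a promoter in the RefSeq table used, CDX2 and KRT8.

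The keratin pair was higher than the control in both knockdown libraries, more so in library 2, and neither gene passed the test. KRT18 encodes the type I partner. It was at 652 and 885 FPKM in knockdown libraries 1 and 2, against 478 FPKM in the control. Both knockdown libraries lay above the control. The log2 difference was 0.67 ± 0.44 (SE, 95% interval -0.28 to 1.62) with a limma adjusted p of 0.812. KRT8 encodes the type II partner. It was at 1084 and 1694 FPKM in the knockdown libraries, against 1031 FPKM in the control. Knockdown library 1 was close to the control, at a ratio of 1.05 (95% counting interval 1.04 to 1.07), and knockdown library 2 stood apart at 1.64 (1.62 to 1.66). The log2 difference was 0.39 ± 0.47 (SE, 95% interval -0.63 to 1.42) with a limma adjusted p of 0.912, and the difference in knockdown library 1 alone was 0.07.

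The ratio of KRT8 to KRT18 within a library, which does not depend on scaling between libraries, was 1.66 and 1.91 in knockdown libraries 1 and 2, against 2.16 in the control. This ratio was thus larger in the control than in either knockdown library. KRT19, another type I keratin of simple epithelia, was at 622 and 1079 FPKM in the knockdown libraries, against 563 FPKM in the control. Its differences of 0.14 and 0.94 were of similar size to those of KRT8, at 0.07 and 0.72, and KRT18, at 0.45 and 0.89.

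KRT8 and KRT18 values are uncertain for 2 reasons. The genes overlap on opposite strands of chromosome 12 (KRT8 at 52897187 to 52949954 on the minus strand, KRT18 at 52948871 to 52952901 on the plus strand, GRCh38, GENCODE release 29). Their annotated exons share 525 bases, which is 7.63% of KRT8 and 16.3% of KRT18 exonic bases, and the strand setting of the counting is not given in the sources used here. Both genes also have many annotated copies, with 50 annotated genes named as KRT8 pseudogenes and 68 as KRT18 pseudogenes. These are counts of names, and how close each copy is was not measured. Of all windows of 100 bases in the main KRT8 transcript, 7.56% occur exactly in a transcript of another gene, most often in KRT8P3, whereas 0 of 1463 windows of the main KRT18 transcript do. The main transcripts of the other 5 genes had 0 such windows.

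A stretch of 60 coding bases from KRT18 (coding bases 19 to 78) is shown beside the same stretch of a copy on another chromosome. That copy, KRT18P11, was picked for sharing the most short exact sequences with KRT18 among those compared. Other copies may be less close. Capitals mark the 2 bases at which the stretches differ.
KRT18: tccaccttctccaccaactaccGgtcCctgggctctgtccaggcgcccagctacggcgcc
KRT18P11: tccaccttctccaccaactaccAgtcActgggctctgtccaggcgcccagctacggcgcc

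Over the whole alignment KRT18P11 (chromosome X) was identical to KRT18 at 95.9% of 1279 coding bases. Reads that lie wholly in a stretch without a difference cannot be assigned by sequence alone. The RefSeq promoter of KRT8 (GRCh38.p14, chr12:52926420-52926719, minus strand) is printed as the counterpart of that of CDX2, with an ETS site (CCGGAAG, as its reverse complement) in capitals 58 bases before the start. Only 1 of 17 GENCODE transcripts of KRT8 starts within 50 bases of this start.
KRT8: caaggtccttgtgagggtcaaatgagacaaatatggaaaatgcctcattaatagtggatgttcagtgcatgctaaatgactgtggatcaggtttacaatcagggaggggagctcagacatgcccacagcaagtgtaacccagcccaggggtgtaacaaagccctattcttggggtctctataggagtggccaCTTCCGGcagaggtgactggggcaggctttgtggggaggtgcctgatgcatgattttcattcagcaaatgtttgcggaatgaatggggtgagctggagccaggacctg

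Of the adhesion genes, CDH1 was lower than the control in both knockdown libraries and EPCAM lay on both sides of it, and neither passed the test. CDH1 encodes E-cadherin (GRCh38 chromosome 16, 68737225 to 68835548, plus strand, GENCODE release 29). It was at 20.3 and 26.7 FPKM in knockdown libraries 1 and 2, against 33.1 FPKM in the control. Both knockdown libraries lay below the control. The log2 difference was -0.49 ± 0.41 (SE, 95% interval -1.37 to 0.40) with a limma adjusted p of 0.859. The ratio to the control was 0.614 (95% counting interval 0.562 to 0.671) in knockdown library 1 and 0.809 (0.746 to 0.877) in knockdown library 2, so each difference exceeded counting error, which is only part of the spread between cultures. These levels rest on at least 807 and 1127 reads in the knockdown libraries and 1296 in the control.

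EPCAM encodes a homophilic adhesion glycoprotein of epithelial cells (GRCh38 chromosome 2, 47345158 to 47387601, plus strand, GENCODE release 29). It was at 170.0 and 191 FPKM in the knockdown libraries, against 176 FPKM in the control. The control lay between the knockdown libraries. The log2 difference was 0.03 ± 0.40 (SE, 95% interval -0.83 to 0.90) with a limma adjusted p of 0.996, and its sign turned with quantile normalization (-0.12). Under median-ratio rescaling both knockdown libraries lay above the control, at 0.05 and 0.20. Within a library, the ratio of EPCAM to CDH1 was 8.37 and 7.15 in knockdown libraries 1 and 2, against 5.33 in the control.

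The chromosomal neighbours of the adhesion genes were also read. CDH3, which encodes P-cadherin next to CDH1, was at 28.6 and 19.9 FPKM in the knockdown libraries, against 54.0 FPKM in the control. Its log2 difference of -1.15 had a limma adjusted p of 0.614. TANGO6, on the other side of CDH1, was at 6.04 and 5.58 FPKM, against 2.88 in the control. The calmodulin gene CALM2, next to EPCAM, was at 251 and 253 FPKM, against 239 in the control. The neighbours of CDH1 thus lay on opposite sides of the control.

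CA2 had the largest difference of the 6 genes tested, and most of it came from knockdown library 2. CA2 encodes the cytosolic carbonic anhydrase that interconverts carbon dioxide and bicarbonate, an enzyme abundant in colonic surface cells. It was at 10.4 and 23.02 FPKM in knockdown libraries 1 and 2, against 8.05 FPKM in the control. Both knockdown libraries lay above the control, and they differed from each other by a ratio of 2.21 (library 2 over library 1, 95% counting interval 1.91 to 2.56). The ratio to the control was 1.29 (1.08 to 1.56) in library 1 and 2.86 (2.44 to 3.36) in library 2. The log2 difference was 0.87 ± 0.49 (SE, 95% interval -0.20 to 1.94) with a limma adjusted p of 0.772. It was 0.34 without knockdown library 2 and 1.41 without knockdown library 1. Between the knockdown libraries, CA2 was the only one of the 6 genes at least 2-fold apart, against 8.99% of all genes tested, and this ended with a pseudocount of 5.

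**Figure D2:**
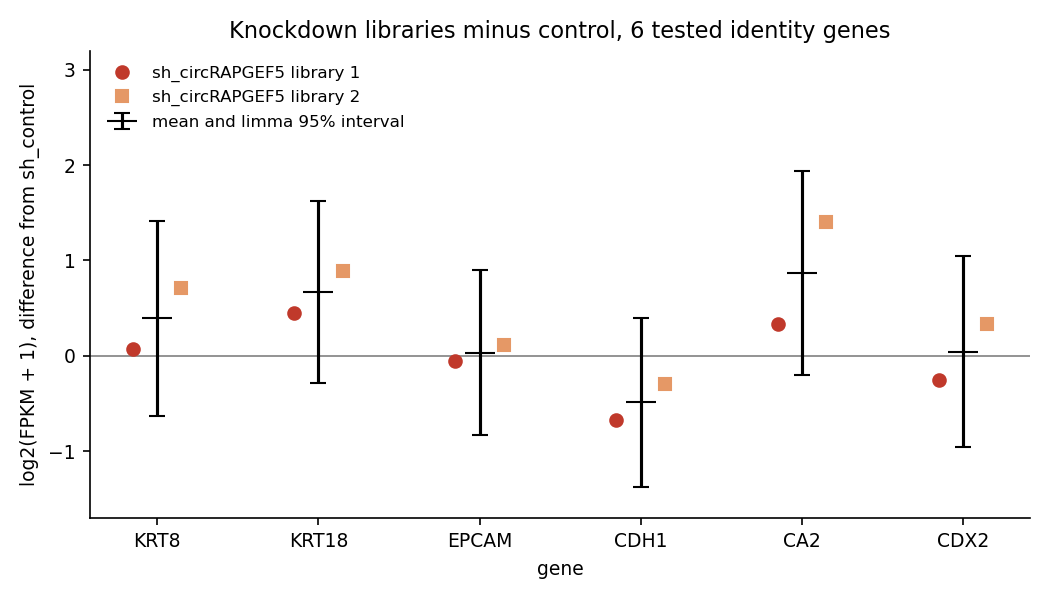
Difference from the control in log2(FPKM + 1) for the 6 tested genes, with knockdown library 1 as circles, knockdown library 2 as squares, and the mean with its limma 95% interval in black. Every interval includes 0.

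Read together, 3 of 6 tested genes (KRT8, KRT18 and CA2) were higher than the control in both knockdown libraries, against 31.7% of all genes tested. CDH1 alone was lower in both, against 37.6% of all genes. The control thus lay outside the knockdown range for 4 of 6 genes, against 69.3% of all genes. EPCAM and CDX2 had the control between the knockdown libraries. None was at least 2-fold higher in both libraries, against 1.21% of all genes, and none at least 2-fold lower, against 1.7%, or 2.92% in either direction. At 1.5-fold the counts were also 0, against 5.52% higher and 7.4% lower over all genes. The median difference of the 6 genes was 0.01 in knockdown library 1 and 0.53 in knockdown library 2, against -0.04 and -0.04 over all genes tested. The libraries share 1 control, so their differences are not independent. The FPKM ratio of knockdown library 2 to knockdown library 1 ran from 1.12 (EPCAM) to 2.21 (CA2). The share of all genes tested that were higher in library 2 was not computed, so these ratios have no background.

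Genes that work with these 7 were described from lists chosen with earlier results of these data known, and limma called 0 in every list. The counts in each list stand beside 31.7% of all genes tested that were higher in both knockdown libraries and 37.6% that were lower in both. Among 10 adherens junction partners, 7 were lower than the control in both knockdown libraries and 1 was higher in both, with a median difference of -0.44, against -0.05 over all genes tested. The 7 became 6 with median-ratio rescaling and 8 with quantile normalization. Beta-catenin, CTNNB1, was at 44.7 and 83.6 FPKM in the knockdown libraries, against 111 FPKM in the control. Alpha-catenin, CTNNA1, was closer to the control, at 96.3 and 103 FPKM, against 107. Plakoglobin, JUP, differed between the knockdown libraries, at 157 and 49.1 FPKM, against 155 in the control.

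Desmosomes anchor keratin filaments at cell contacts, and of 9 desmosome genes tested 7 were lower in both knockdown libraries and 0 higher in both, against 37.6% and 31.7% of all genes tested, with a median of -0.53. The plakophilin PKP3 was at 29.2 and 24.1 FPKM in the knockdown libraries, against 49.04 FPKM in the control. PKP4 was at 5.76 and 11.4 FPKM, against 17.7, and the desmosomal cadherin DSC2 at 4.51 and 4.43 FPKM, against 9.51. The more abundant desmoglein DSG2 (mean log2 difference -0.19), desmoplakin DSP (-0.38) and periplakin PPL (-0.45) lay nearer to 0. The smallest limma adjusted p in this list was 0.706. With median-ratio rescaling the counts were 7 lower and 1 higher, and with quantile normalization 7 and 0.

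Tight junction genes had no common direction: of 16 tested, 7 lay above the control in both knockdown libraries and 5 below, with a median of -0.03, which turned to 0.05 with median-ratio rescaling. Cingulin, CGN, was at 7.69 and 10.7 FPKM in the knockdown libraries, against 19.0 FPKM in the control, and TJP3 had a mean log2 difference of -0.83. The polarity gene PARD6B was at 12.995 and 8.38 FPKM, against 4.53 in the control. Among the most abundant members, F11R had differences of 0.36 and 0.23 in knockdown libraries 1 and 2, and CLDN4 was above the control in library 1 (0.29) and below it in library 2 (-0.56). CLDN7, a claudin that binds EPCAM, was at 62.6 and 63.4 FPKM, against 60.7, and its sign turned with quantile normalization.

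Among 10 genes of EPCAM-associated proteins and matriptase regulators, 5 lay above the control in both libraries and 2 below, with a median of 0.08 that turned to -0.001 with quantile normalization. CD44, the hyaluronan receptor, was at 85.8 and 119 FPKM in the knockdown libraries, against 44.6 FPKM in the control. FHL2, which binds the intracellular part of EPCAM, was at 31.2 and 16.8 FPKM, against 8.83. The tetraspanin CD9 was at 91.8 and 67.1 FPKM, against 141. SPINT2, an inhibitor of matriptase, differed less, at 219 and 197 FPKM, against 233. The smallest limma adjusted p in this list was 0.592.

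Of 7 other keratins tested, 4 lay above the control in both knockdown libraries and 1 below, with a median of 0.54. KRT7, a type II keratin of ductal epithelia, was at 12.7 and 38.4 FPKM in the knockdown libraries, against 7.92 FPKM in the control. KRT81, a hair keratin, was at 1.13 and 4.32 FPKM, against 0.286. KRT80 was the one lower in both, at 4.74 and 7.05 FPKM, against 15.9. KRT10 lay on opposite sides (-0.54 and 0.47), and keratins share sequence, so these values are uncertain. None passed limma, with a smallest adjusted p of 0.580.

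**Figure D3:**
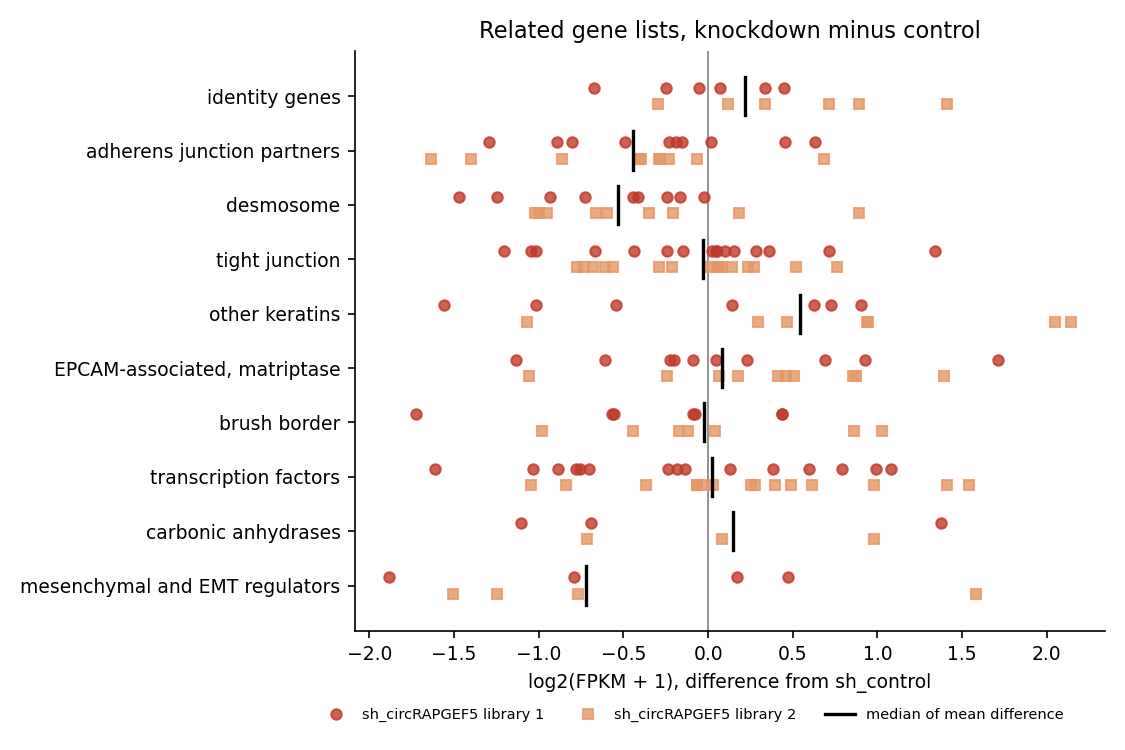
Difference from the control in log2(FPKM + 1) for the tested genes of each list, 1 circle per gene for knockdown library 1 and 1 square for knockdown library 2, with the median of the mean differences as a black line. Most desmosome genes lie left of 0 (7 of 9 lower in both), while tight junction genes spread to both sides.

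The list of intestinal and epithelial transcription factors, which also holds the splicing factors ESRP1 and ESRP2, was split. Of its 15 genes tested, 6 lay above the control in both libraries and 6 below, or 8 and 4 with quantile normalization. Both splicing factors were among the 6 below. KLF5, a factor of proliferating crypt cells, was at 20.8 and 28.98 FPKM in the knockdown libraries, against 9.29 FPKM in the control. ELF3, an epithelial ETS factor, was at 18.5 and 32.4 FPKM, against 58.8. The epithelial splicing factor ESRP1 was at 31.2 and 30.97 FPKM, against 64.9, and SOX9, a crypt factor, at 27.1 and 41.4 FPKM, against 20.5. KLF5 and ESRP1 were at least 2-fold from the control in both libraries and did not pass limma, at adjusted p of 0.553 and 0.623.

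Of 7 brush border genes tested, 1 lay above the control in both libraries and 3 below, and 3 each with median-ratio rescaling. Ezrin, EZR, which links microvillar actin to the membrane, was abundant, at 535 and 806 FPKM in the knockdown libraries, against 396 FPKM in the control. Its scaffold SLC9A3R1 was at 53.1 and 103 FPKM, against 56.2. The myosin MYO1D was at 5.47 and 9.83 FPKM, against 20.4, the actin bundler ESPN had a mean log2 difference of -0.50, and EPS8 was at -0.02, turning to 0.06 with median-ratio rescaling. Of 14 listed genes with values, 7 were under 1 FPKM in every library, among them MYO1A, MYO7B, CDHR2 and CDHR5.

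The other carbonic anhydrases had their own patterns. CA13, another cytosolic form, was at 6.94 and 2.23 FPKM in the knockdown libraries, against 2.05 FPKM in the control, so it was high in library 1 where CA2 was high in library 2. CA11 was at 11.4 and 15.3 FPKM, against 25.7, and CA12 at 0.238 and 2.93 FPKM, against 0.996. CA3, the nearest gene to CA2 with values here, was under 1 FPKM in every library. None of the 3 tested carbonic anhydrases passed limma, with a smallest adjusted p of 0.706.

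The epithelial part of the label fits the levels and the intestinal part does so weakly. The epithelial markers KRT8, KRT18, KRT19, EPCAM, CLDN7 and CDH1 each exceeded 20 FPKM in all libraries. Of the 4 intestinal markers VIL1, CDX2, CDH17 and LGALS4, only CDX2 was above 1 FPKM. CDH17, the intestinal cadherin, was at 0 and 0.0152 FPKM in the knockdown libraries, against 0.0164 in the control, and LGALS4 at 0.377 and 0.152 FPKM, against 0.273. MUC1, the only one of 9 intestinal surface and secreted genes with values that was tested, was at 0.729 and 1.12 FPKM, against 1.57.

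**Figure D4:**
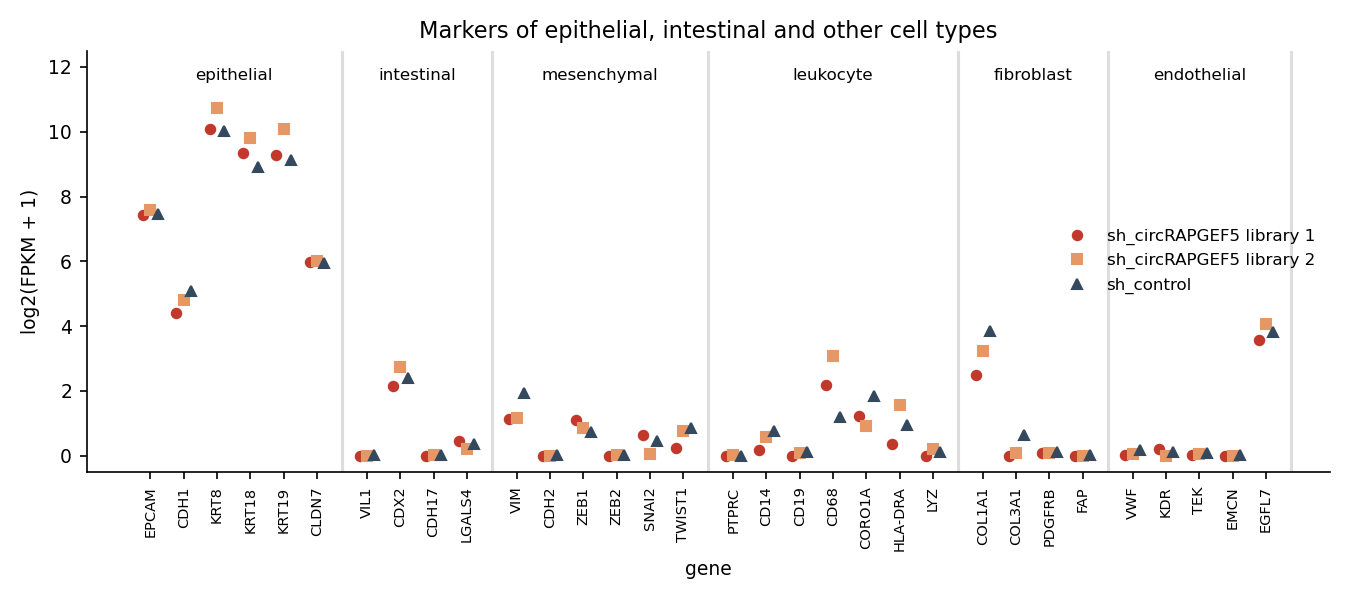
Levels, as log2(FPKM + 1), of markers of epithelial, intestinal, mesenchymal, leukocyte, fibroblast and endothelial cells, with 1 circle (knockdown library 1), square (knockdown library 2) and triangle (control) per gene. Epithelial markers stand highest, with KRT8 up to 1694 FPKM, and PTPRC, CDH2 and FAP lie at or next to 0. Other markers of non-epithelial cells do not: in the control COL1A1 was at 13.4, EGFL7 at 13.2, VIM at 2.82 and CD68 at 1.30 FPKM.

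Mesenchymal genes and markers of other cell types are given beside these levels, and their part in them was not tested. N-cadherin, CDH2, was at 0 FPKM in both knockdown libraries, against 0.0134 in the control, and vimentin, VIM, at 1.21 and 1.24 FPKM, against 2.82. The CDH1 repressor SNAI1 was at 5.47 and 12.957 FPKM, against 3.67, fibronectin, FN1, at 0.815 and 1.83 FPKM, against 5.70, and S100A4 at 528 and 164 FPKM, against 469. Of 4 mesenchymal and EMT genes tested, 1 was higher and 2 were lower in both libraries. Summed leukocyte markers (7 of 8 listed had values) were at 5.30 and 11.1 FPKM in the knockdown libraries, against 5.68 in the control. CD68 was the largest part in both knockdown libraries, at 3.55 and 7.4997 FPKM, against 1.30 in the control. CORO1A was lower in both, at 1.34 and 0.898 FPKM, against 2.59, and HLA-DRA was at 0.294 and 1.99 FPKM, against 0.944. Limma called 0 of these 3, with a smallest adjusted p of 0.582. Summed fibroblast markers (4 of 8) were at 4.71 and 8.49 FPKM, against 14.04, nearly all from COL1A1, and summed endothelial markers (5 of 8) at 11.2 and 15.7 FPKM, against 13.5, nearly all from EGFL7. PTPRC, which defines leukocytes, was at 0 and 0.00901 FPKM in the knockdown libraries, against 0 in the control.

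Genes whose 3 values were most like those of each member, by Euclidean distance of centred log2(FPKM + 1), were found over only 3 libraries and so are a description. Nearest to KRT18 were JMJD4 (distance 0.008) and LSM3 (0.013), and to KRT8 they were MRPS5 (0.011) and SLC35F3 (0.012). Nearest to CDH1 were FUT1 (0.006) and GRIN1 (0.011), to EPCAM APOM (0.005) and PPP1R2 (0.008), and to CDX2 SERPINE2 (0.008) and UNC13B (0.014). CA2 had the fewest near genes: 9 genes, 0.0802% of those tested, lay within a distance of 0.1, led by JPH1 (0.049) and MYBBP1A (0.056). Values were centred and not scaled, so this count also depends on the size of the differences, which was largest for CA2. For EPCAM 397 genes lay that near. Among the 6 genes themselves KRT8 and KRT18 were the closest pair (0.27), and CDH1 and CA2 the farthest apart (1.21). KRT8 and CDX2 (0.29) and EPCAM and CDX2 (0.30) were nearly as close as the keratin pair.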

How the data were processed

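Messenger RNA of 3 HCT116 libraries was analysed. FPKM values per gene were computed and deposited by the authors. Trimming with Trimmomatic and alignment with HISAT2 to GRCh38.p13 are named per the submitters' processing notes. Not given in the sources used here are tool versions, the counter, its strand setting and its annotation. Values of a gene in the 3 libraries formed whole-number ratios for all 15625 genes (100%, relative tolerance 1e-12) after 1 depth factor per library. The smallest such whole numbers are called reads; true numbers may be whole multiples, which would narrow the exact (Clopper-Pearson) counting intervals. Those intervals and the limits for a count of 0 compare libraries and cover counting error only.

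Genes with a mean FPKM of at least 1 (11216) were fitted on log2(FPKM + 1) with limma 3.58.1 (R 4.3.3, mean-variance trend, 10.92 prior and 1 residual degrees of freedom). The spread of the single control was taken to equal that of the knockdown libraries. VIL1 fell below the filter. The genes, lists and tests were chosen with earlier results of these data known. Named genes were the 7 members, in each list the 3 tested genes farthest from the control and the 3 most abundant, the 2 most similar genes per member and the nearest protein-coding genes. Genes were placed with GENCODE release 29, and promoters and neighbours came from RefSeq on GRCh38.p14. List genes without a value are not analysed here. The settings varied were the pseudocount (0.1 or 5), the filter (none, or a mean of 5 FPKM), scaling (median-ratio or quantile), limma (no trend, robust, or a prior of 5 degrees of freedom), the fold threshold (1.5), and the knockdown library left out. A neighbouring gene and a keratin sequence are not reported here.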

Additional observations from a re-analysis of the deposited data

How the results depend on the processing

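None of the 6 tested genes passed limma under any alternative run. Over all genes tested, the 2 calls became 1 with a pseudocount of 5, median-ratio rescaling, limma without the trend or robust limma, and 0 with no filter, quantile normalization or a prior of 5 degrees of freedom. EPCAM turned from 0.03 to -0.12 with quantile normalization, which raised the number of genes lower in both libraries from 1 to 2. With no filter that number was also 2, because VIL1 entered. Without either knockdown library in turn, EPCAM ranged from -0.052 to 0.12 and CDX2 from -0.25 to 0.34, the lower value in each case without library 2. The number of the 6 genes higher than the control ranged from 3 to 5, lower from 1 to 3, and at least 2-fold higher from 0 to 1 (CA2, without library 1), with 1 library against 1 and no test. CDX2 has no value under the filter of 5 FPKM. Median-ratio rescaling moved the median of all genes by 0.08 and quantile normalization by 0.06. No paired analysis was possible because the control is 1 library with no number in the labels. Depth limits VIL1, at 0 FPKM in both knockdown libraries and 0.00944 FPKM in the control. For EPCAM and CDX2 the 95% counting interval of knockdown library 1 over the control includes a ratio of 1.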
